A study of Mus musculus with 11 samples.

Results

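Lipid droplets are the fat stores of the hepatocyte, and the genes that coat, enlarge and empty them were followed here in hepatocytes with and without the transcription factor XBP1. The 10 genes were chosen by name for their known roles at the droplet: *Plin2*, *Plin3*, *Plin4* and *Plin5*, *Cidea*, *Cideb* and *Cidec*, *G0s2*, *Pnpla2* and *Fitm2*, out of 54232 genes in each count table. This choice was made with earlier results of these data known. Hepatocytes came from adult male C57BL/6 mice that carried floxed *Xbp1* alleles (*Xbp1* fl/fl, the controls) or the same alleles together with a Cre transgene under the albumin promoter (*Xbp1* LKO), which acts in hepatocytes and leaves other liver cells intact. Each genotype ate standard chow or a Western-type diet high in fat and sugar (HFS), with fructose and glucose added to the drinking water, for up to 6 weeks. There were 3 libraries of chow-fed *Xbp1* fl/fl, 2 of chow-fed *Xbp1* LKO, 3 of HFS-fed *Xbp1* fl/fl and 3 of HFS-fed *Xbp1* LKO hepatocytes. A chow library held 1 mouse and an HFS library a pool of 2 mice, so animal-to-animal variation is averaged in the HFS libraries alone, and this cannot be told apart from the diet.

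A lipid droplet is a core of triglyceride and cholesterol ester inside a single layer of phospholipid. FITM2, a protein of the endoplasmic reticulum (ER) membrane, helps new droplets bud from the ER. Perilipins coat the droplet and control access to it, CIDE proteins pass lipid between touching droplets or onto lipoproteins, PNPLA2 (adipose triglyceride lipase, ATGL) begins triglyceride breakdown, and G0S2 inhibits PNPLA2. XBP1 is best known as a factor that expands the ER in the unfolded protein response, and in the liver it also acts on lipid synthesis.

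Levels are given as CPM, counts scaled to a common library size with edgeR's TMM factors. Total counts were 19191032 to 23888401 per library. *Xbp1* itself was 194 to 301 CPM in the 6 *Xbp1* fl/fl libraries and 95.7 to 135 CPM in the 5 *Xbp1* LKO libraries, with no overlap, for a whole-gene count that does not separate the floxed exon. Hepatocyte markers (10 genes, *Alb* to *Serpina1a*) were abundant in all 11 libraries, but their summed level was 112047 to 169076 CPM in *Xbp1* fl/fl and 38776 to 88850 CPM in *Xbp1* LKO libraries. Albumin took 5.88% to 10.9% of the counts in *Xbp1* fl/fl and 1.67% to 5.40% in *Xbp1* LKO libraries. Counts of all 37 mitochondrial genes were 0 in every library.

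Ordered by CPM per kilobase of exon, which allows genes to be compared, *Plin2* was first in all 4 groups and *Cidea* last. *Plin2*, the perilipin found in nearly every cell that stores fat, stood at 170.7 ± 50.1 (SD, n = 3) CPM per kb in chow-fed *Xbp1* fl/fl, 143 ± 34.2 (SD, n = 2) in chow-fed *Xbp1* LKO, 117 ± 14.96 (SD, n = 3) in HFS-fed *Xbp1* fl/fl and 139.7 ± 15.1 (SD, n = 3) in HFS-fed *Xbp1* LKO hepatocytes. *G0s2* was next, with group means from 90.9 to 114 CPM per kb. Its range overlapped that of *Plin2* in every group but chow-fed *Xbp1* LKO. *Pnpla2* came after *G0s2* in all groups, with means from 41.0 to 58.8 CPM per kb. The middle of the order was held by *Cideb*, *Plin5* and *Fitm2*, with means from 20.8 to 41.2 CPM per kb, ahead of *Plin3* at 13.4 to 14.9 CPM per kb. *Cidec* and *Plin4* were low, with means of 2.97 to 4.24 and 1.42 to 4.74 CPM per kb.

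**Figure D1:**
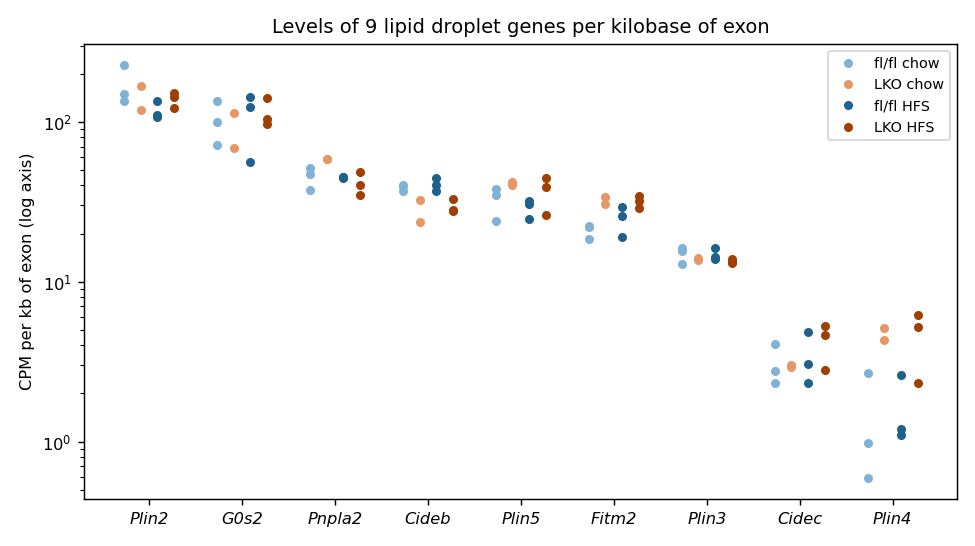
CPM per kilobase of exon on a log axis for 9 lipid droplet genes, 1 point per library, coloured by genotype and diet; *Cidea* is left out because several libraries had 0 counts. *Plin2* and *G0s2* lead the order, and *Plin4* spans 0.590 to 6.21 CPM per kb. The *Xbp1* LKO libraries of *Plin4* lie to its upper end, except HFS-fed replicate 3 (2.31), which lies within the *Xbp1* fl/fl range.

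The order of the middle and lowest genes differed between genotypes. In both *Xbp1* fl/fl groups the mean of *Cideb* stood above that of *Plin5* and *Plin5* above *Fitm2*, and in both *Xbp1* LKO groups *Plin5* stood above *Fitm2* and *Fitm2* above *Cideb*. *Fitm2* and *Cideb* ranges did not overlap in either *Xbp1* fl/fl group, whereas they overlapped in both *Xbp1* LKO groups. At the bottom, *Plin4* was below *Cidec* in both *Xbp1* fl/fl groups with overlapping ranges. It was above *Cidec* in both *Xbp1* LKO groups, with separate ranges on chow and overlapping ranges on the HFS diet. Among the 4 perilipins, *Plin2* made up 66.5% to 80.9% of the summed CPM per kb in single libraries, *Plin5* 12.6% to 22.7%, *Plin3* 4.59% to 10.5% and *Plin4* 0.309% to 3.68%.

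*Cidea*, which enlarges droplets in brown fat and in fatty liver, was nearly absent. Its counts were 0, 2 and 2 in chow-fed *Xbp1* fl/fl, 0 and 1 in chow-fed *Xbp1* LKO, 1, 0 and 0 in HFS-fed *Xbp1* fl/fl, and 3, 13 and 0 in HFS-fed *Xbp1* LKO libraries. The 13 counts of HFS-fed *Xbp1* LKO replicate 2 were the only value above 3. *Cidea* did not pass the filter on low counts, so 9 of the 10 genes were tested among 13303 genes. A difference in *Cidea* was not detectable at this depth.

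The question for genotype is whether droplet genes differed between hepatocytes with and without XBP1 on either diet. Averaged over both diets, *Plin4* and *Fitm2* were higher and *Cideb* was lower in *Xbp1* LKO hepatocytes, so 3 of 9 tested genes passed the threshold against 11.9% of all genes tested (5.25% higher and 6.64% lower). *Plin4* differed by 3.03-fold, *Fitm2* by 1.41-fold, and *Cideb* stood at 0.725 of its *Xbp1* fl/fl level. Fold changes below are log2 values from edgeR's quasi-likelihood test on all 11 libraries, with p-values adjusted by the Benjamini-Hochberg method over all genes tested and a threshold of 0.05. With so few genes, chosen with earlier results of these data known, a count of 3 of 9 describes these genes and no more.

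*Plin4* is the perilipin most at home in fat tissue and muscle, and its protein is rich in repeats that coat young droplets. The gene (ENSMUSG00000002831) lies at chr17:56100591-56109803 on the minus strand of GRCm38. Its levels were 5.63, 3.41 and 15.6 CPM in chow-fed *Xbp1* fl/fl and 29.8 and 24.9 CPM in chow-fed *Xbp1* LKO libraries. On the HFS diet they were 6.95, 6.36 and 15.1 CPM in *Xbp1* fl/fl and 30.1, 35.8 and 13.3 CPM in *Xbp1* LKO libraries. The groups did not overlap on chow, where 15.4% of all genes tested were higher without overlap, while on the HFS diet *Xbp1* LKO replicate 3 fell below the highest *Xbp1* fl/fl library. The log2 fold change was 1.72 (SE 0.56, adjusted p = 0.112) on chow, 1.48 (SE 0.52, adjusted p = 0.149) on the HFS diet and 1.60 (SE 0.38, adjusted p = 0.019) averaged over diets. The averaged call was lost without chow-fed *Xbp1* LKO replicate 2 (adjusted p = 0.0504) or HFS-fed *Xbp1* LKO replicate 2 (adjusted p = 0.0508). Its 3 *Xbp1* fl/fl libraries on chow differed among themselves by up to 4.57-fold, and without replicate 3 of that group the difference on chow was called (log2 fold change 2.59, adjusted p = 0.0253).

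*Fitm2* (ENSMUSG00000048486, chr2:163466379-163472629, minus strand) was 73.0, 88.0 and 86.6 CPM in chow-fed *Xbp1* fl/fl and 134 and 121 CPM in chow-fed *Xbp1* LKO libraries. HFS-fed libraries held 116, 75.7 and 102 CPM in *Xbp1* fl/fl and 136, 127 and 114 CPM in *Xbp1* LKO. Every chow-fed *Xbp1* LKO library was above every chow-fed *Xbp1* fl/fl library, as for 15.4% of all genes tested. On the HFS diet the lowest *Xbp1* LKO library lay just under the highest *Xbp1* fl/fl library. The log2 fold change was 0.63 (SE 0.17, adjusted p = 0.058) on chow, 0.36 (SE 0.15, adjusted p = 0.252) on the HFS diet and 0.49 (SE 0.11, adjusted p = 0.016) averaged over diets. DESeq2 called the chow difference (adjusted p = 0.0154), as did edgeR without HFS-fed *Xbp1* fl/fl replicate 2 (adjusted p = 0.0249). The averaged call remained with each of the 11 libraries left out in turn, with adjusted p from 0.0108 to 0.0496.

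*Cideb*, the CIDE protein of healthy hepatocytes, takes part in loading lipid onto very low density lipoprotein. The gene (ENSMUSG00000022219) lies at chr14:55754050-55758458 on the minus strand. Its levels were 59.6, 59.4 and 54.6 CPM in chow-fed *Xbp1* fl/fl, 48.5 and 35.2 CPM in chow-fed *Xbp1* LKO, 60.3, 54.9 and 66.7 CPM in HFS-fed *Xbp1* fl/fl, and 49.2, 41.4 and 41.8 CPM in HFS-fed *Xbp1* LKO libraries. All 5 *Xbp1* LKO libraries lay below all 6 *Xbp1* fl/fl libraries, a pattern in this direction that 4.34% of all genes tested shared. The log2 fold change was -0.47 (SE 0.15, adjusted p = 0.101) on chow, -0.46 (SE 0.13, adjusted p = 0.078) on the HFS diet and -0.46 (SE 0.10, adjusted p = 0.011) averaged over diets. DESeq2 called the HFS difference (adjusted p = 0.0307), as did edgeR without either chow-fed *Xbp1* LKO library (adjusted p = 0.0392 and 0.0396), and the chow difference was called without chow-fed *Xbp1* LKO replicate 1 (log2 fold change -0.72, adjusted p = 0.0289). The averaged call was lost without chow-fed *Xbp1* LKO replicate 2 (adjusted p = 0.0532) and with scaling by library totals, where the log2 fold change was -0.18 (adjusted p = 0.113).

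**Figure D2:**
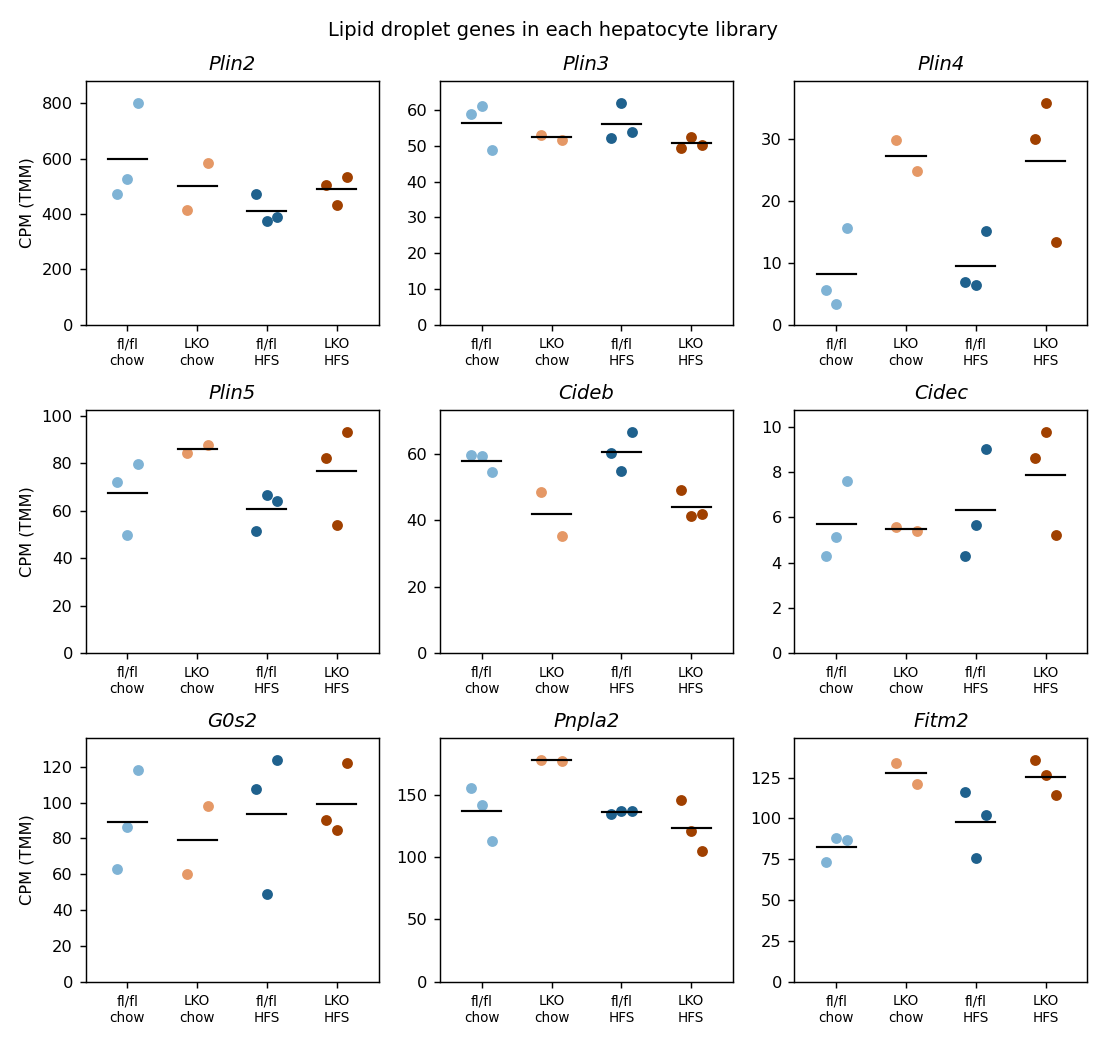
CPM of 9 lipid droplet genes in each of 11 hepatocyte libraries; points are libraries, black lines are group means, and each axis starts at 0. The 5 *Xbp1* LKO points of *Cideb* lie below the 6 *Xbp1* fl/fl points, and the *Xbp1* LKO means of *Plin4* (27.4 and 26.4 CPM) stand above those of *Xbp1* fl/fl (8.21 and 9.48 CPM).

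Because the scaling of libraries touches these values, a ratio within a library was taken as well, for a pair chosen after its values were seen. The ratio of *Fitm2* to *Cideb*, in CPM per kb, was 0.459 to 0.722 in the 6 *Xbp1* fl/fl libraries and 1.02 to 1.29 in the 5 *Xbp1* LKO libraries. It shows unequal change of the 2 genes and not which of them changed. Scaling by library totals instead of TMM moved the median log2 fold change of all genes to 0.33 on chow, 0.27 on the HFS diet and 0.30 averaged over diets. Relative to that median, the averaged log2 fold changes were 1.58 for *Plin4*, 0.48 for *Fitm2* and -0.48 for *Cideb*. Subtracting the median largely undoes that scaling, so these values must lie near the TMM ones and are no separate check. Exons of *Plin4* overlap those of *Hdgfl2* on the opposite strand, and exons of *Cideb* overlap those of *Nop9*. Exons of *Fitm2* overlap those of the antisense gene *2310001K24Rik*, which had at most 6 counts in a library. The counting is not stated to use strand, so reads in the shared exons may be divided wrongly. *Hdgfl2* (averaged log2 fold change 0.04, adjusted p = 0.874) and *Nop9* (0.11, adjusted p = 0.520) did not pass the threshold.

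**Figure D3:**
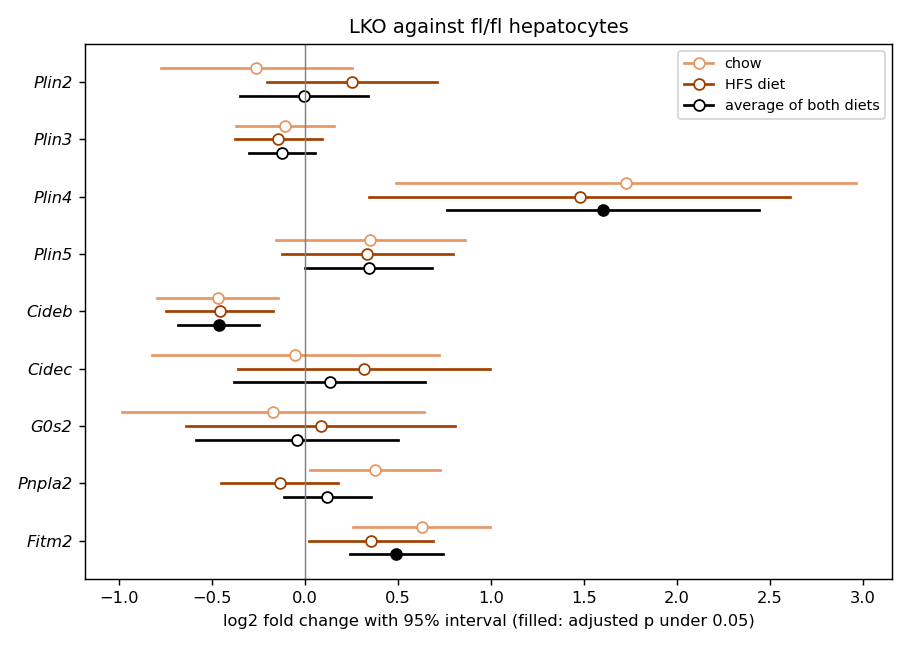
Log2 fold change of *Xbp1* LKO against *Xbp1* fl/fl hepatocytes with its 95% interval, for 9 genes on chow, on the HFS diet and averaged over both; filled points passed the threshold of 0.05 on the adjusted p. *Plin4* and *Fitm2* lie to the right of 0 and *Cideb* to the left in all 3 contrasts, with filled points in the averaged contrast.

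The promoters of the 3 called genes, and of *Plin2* beside them as the most abundant member, are shown to let their sequence be read with the values. RefSeq promoters of GRCm38.p6 were found for 9 of the 10 genes (11 promoters), and each is given from 250 bases before to 30 bases after the transcription start, on the strand of the gene. Capitals mark 3 short motifs on either strand: AGGTCA, the half-site of nuclear receptors such as PPAR alpha with RXR, CCACG, the end of the ER stress response element, and ACGTG, the core of the unfolded protein response element. CCACG and ACGTG can overlap where both occur, as in the letters CCACGTG.
Plin4, chr17:56109753-56110032, minus strand: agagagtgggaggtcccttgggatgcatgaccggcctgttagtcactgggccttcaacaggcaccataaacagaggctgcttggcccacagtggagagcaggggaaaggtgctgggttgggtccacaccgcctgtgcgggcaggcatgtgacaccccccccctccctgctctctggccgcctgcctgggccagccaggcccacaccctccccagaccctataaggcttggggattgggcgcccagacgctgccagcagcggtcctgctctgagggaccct
Fitm2, chr2:163472600-163472879, minus strand: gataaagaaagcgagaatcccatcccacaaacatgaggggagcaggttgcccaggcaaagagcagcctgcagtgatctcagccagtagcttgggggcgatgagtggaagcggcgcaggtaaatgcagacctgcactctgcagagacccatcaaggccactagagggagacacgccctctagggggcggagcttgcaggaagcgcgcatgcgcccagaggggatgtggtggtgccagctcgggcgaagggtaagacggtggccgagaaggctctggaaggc
Cideb, chr14:55758395-55758674, minus strand: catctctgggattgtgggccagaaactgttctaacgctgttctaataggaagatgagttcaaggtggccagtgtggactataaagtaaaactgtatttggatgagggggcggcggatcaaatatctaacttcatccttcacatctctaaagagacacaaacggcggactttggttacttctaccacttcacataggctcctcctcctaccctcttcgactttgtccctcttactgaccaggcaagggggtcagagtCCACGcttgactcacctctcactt
Plin2, chr4:86670030-86670309, minus strand: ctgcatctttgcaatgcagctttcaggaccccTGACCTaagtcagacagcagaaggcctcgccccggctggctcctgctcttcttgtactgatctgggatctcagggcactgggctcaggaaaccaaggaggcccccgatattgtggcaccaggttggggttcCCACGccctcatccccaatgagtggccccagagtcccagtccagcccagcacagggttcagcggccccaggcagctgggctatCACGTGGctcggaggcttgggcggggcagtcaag
None of the 3 motifs was in the *Plin4* or *Fitm2* window, and *Cideb* held 1 CCACG, starting at base 7 of the transcript. *Plin2* held 1 AGGTCA, 2 CCACG and 2 ACGTG, where both ACGTG, 1 on each strand, and 1 CCACG share letters at the transcription start. In all 32851 RefSeq promoters cut to this length, AGGTCA was found in 15.3%, CCACG in 31.1% and ACGTG in 18.5%. A match is a run of letters and not a bound site.

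*Plin2* (ENSMUSG00000028494, chr4:86648386-86670060, minus strand) did not differ by genotype beyond the spread of its libraries. It was 472, 527 and 800.1 CPM in chow-fed *Xbp1* fl/fl, 416 and 585 CPM in chow-fed *Xbp1* LKO, 472, 375 and 388 CPM in HFS-fed *Xbp1* fl/fl, and 506, 431 and 534 CPM in HFS-fed *Xbp1* LKO libraries. The *Xbp1* LKO and *Xbp1* fl/fl libraries overlapped on both diets. Averaged over diets the log2 fold change was -0.00 with a 95% interval of -0.35 to 0.34 (adjusted p = 0.993). Its chow estimate was -0.26 (adjusted p = 0.60) and its HFS estimate 0.25 (adjusted p = 0.609).

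*Plin5*, the perilipin of oxidative tissues that holds droplets near mitochondria, lies beside *Plin4* on chromosome 17 (ENSMUSG00000011305, chr17:56111601-56117596, minus strand). Its levels were 72.3, 50.05 and 79.7 CPM in chow-fed *Xbp1* fl/fl, 84.3 and 87.6 CPM in chow-fed *Xbp1* LKO, 51.3, 66.8 and 64.1 CPM in HFS-fed *Xbp1* fl/fl, and 82.2, 54.2 and 93.4 CPM in HFS-fed *Xbp1* LKO libraries. *Xbp1* LKO libraries were the higher ones on chow, without overlap, as 15.4% of all genes tested were, and the groups overlapped on the HFS diet. The averaged log2 fold change of 0.34 (SE 0.16, 95% interval 0.00 to 0.69) did not pass the threshold (adjusted p = 0.194). It did pass with scaling by library totals (0.63, adjusted p = 0.0096) and with no filter on low counts (0.36, adjusted p = 0.0167). Library totals moved the median of all genes to 0.30, with 91.4% of called genes higher, and relative to that median *Plin5* was 0.33. Without the filter, edgeR's adjusted p of *Plin4* on chow went from 0.112 to 3.6e-14 at log2 fold changes of 1.72 and 1.75. Neither pass is therefore taken as support for *Plin5*. *Plin3*, the perilipin that moves from cytosol to nascent droplets, was the most even of the genes at 48.9 to 62.0 CPM over all 11 libraries, with an averaged log2 fold change of -0.12 (SE 0.08, adjusted p = 0.380). It lies on the same chromosome (ENSMUSG00000024197, chr17:56277476-56292873, minus strand).

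*Cidec* (ENSMUSG00000030278, chr6:113424634-113435760, minus strand), the droplet-fusing protein also called FSP27, is typical of fat tissue and of steatotic liver. It was 4.30, 5.14 and 7.62 CPM in chow-fed *Xbp1* fl/fl, 5.59 and 5.42 CPM in chow-fed *Xbp1* LKO, 4.29, 5.65 and 9.01 CPM in HFS-fed *Xbp1* fl/fl, and 8.64, 9.78 and 5.21 CPM in HFS-fed *Xbp1* LKO libraries. Groups overlapped in all comparisons of genotype and diet. The averaged log2 fold change for genotype was 0.13 with a 95% interval of -0.38 to 0.65 (adjusted p = 0.783), and counts of 78 to 263 per library stand behind it.

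On the lipolysis side, *Pnpla2* (ENSMUSG00000025509, chr7:141455198-141460743, plus strand) was 156, 142 and 113 CPM in chow-fed *Xbp1* fl/fl and 178 and 177 CPM in chow-fed *Xbp1* LKO libraries. HFS-fed libraries held 134, 137 and 137 CPM in *Xbp1* fl/fl and 146, 121 and 105 CPM in *Xbp1* LKO. Chow-fed *Xbp1* LKO libraries were above all others of the 11. Against chow-fed *Xbp1* fl/fl alone, 15.4% of all genes tested were higher without overlap. HFS-fed *Xbp1* LKO libraries overlapped HFS-fed *Xbp1* fl/fl libraries. The log2 fold change for genotype was 0.38 (SE 0.16, adjusted p = 0.218) on chow and -0.14 (SE 0.14, adjusted p = 0.707) on the HFS diet. The difference between those effects was -0.51 (SE 0.21), with an unadjusted p = 0.0347 and an adjusted p = 0.792, so it did not pass. Of all genes tested, 6.13% had an unadjusted p under 0.05 in this interaction and 0.0% passed in edgeR.

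*G0s2* (ENSMUSG00000009633, chr1:193272161-193273217, minus strand), the inhibitor, varied widely within groups. It was 62.7, 86.6 and 118 CPM in chow-fed *Xbp1* fl/fl, 60.1 and 98.3 CPM in chow-fed *Xbp1* LKO, 108, 49.1 and 124 CPM in HFS-fed *Xbp1* fl/fl, and 90.6, 84.7 and 122 CPM in HFS-fed *Xbp1* LKO libraries. Its averaged log2 fold change for genotype was -0.04 with a 95% interval of -0.59 to 0.50 (adjusted p = 0.943), wide enough to hold a change of either sign. The ratio of *G0s2* to *Pnpla2* in CPM per kb was 1.40 to 3.63 in chow-fed *Xbp1* fl/fl, 1.17 to 1.92 in chow-fed *Xbp1* LKO, 1.24 to 3.14 in HFS-fed *Xbp1* fl/fl, and 2.15 to 4.04 in HFS-fed *Xbp1* LKO libraries. The 2 *Xbp1* LKO groups did not overlap in that ratio and the 2 *Xbp1* fl/fl groups did, a description with no test. How often ratios of other gene pairs separate these groups was not counted.

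Counted by comparison, 0 of 9 genes passed for genotype on chow, where 4.75% of all genes tested passed. At an unadjusted p under 0.05 there were 4 (*Fitm2*, *Cideb*, *Plin4* and *Pnpla2*), against 19.3% of all genes, and DESeq2 called 1, *Fitm2*. On the HFS diet 0 of 9 passed against 4.08% of all genes, 3 had an unadjusted p under 0.05 (*Cideb*, *Plin4* and *Fitm2*) against 17.5%, and DESeq2 called 1, *Cideb*. The median log2 fold change of the 9 genes was -0.05 on chow and 0.25 on the HFS diet, against 0.00 and 0.01 for all genes tested. The chow and HFS comparisons use separate libraries, and the estimates for *Plin4*, *Fitm2*, *Cideb*, *Plin5* and *Plin3* had the same sign in both. Those for *Plin2*, *Cidec*, *G0s2* and *Pnpla2* had opposite signs. The share of all genes with the same sign was not counted, so no agreement is drawn from this. With scaling by library totals the estimate of *Plin3* was -0.11 on chow and -0.15 on the HFS diet relative to the median of all genes, near the TMM values by construction.

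The question for diet is whether HFS feeding changed droplet genes in either genotype. None of the 9 genes passed in either, and the largest estimates were decreases of *Plin2* in *Xbp1* fl/fl and of *Pnpla2* in *Xbp1* LKO hepatocytes that missed the threshold. In *Xbp1* fl/fl, 0 of 9 passed against 0.428% of all genes, 1 had an unadjusted p under 0.05 against 8.95% of all genes, and DESeq2 called 0. *Plin2* was lower in all 3 HFS-fed than in all 3 chow-fed *Xbp1* fl/fl libraries by a narrow margin, since both groups held a library at 472 CPM, and 7.34% of all genes tested were lower without overlap. Its log2 fold change was -0.54 (SE 0.21, 95% interval -1.0 to -0.09, adjusted p = 0.451), and without chow-fed replicate 3, its highest library, it was -0.28. In *Xbp1* LKO, 0 of 9 passed against 0.0601% of all genes, 1 had an unadjusted p under 0.05 against 12.7% of all genes, and DESeq2 called 0. *Pnpla2* was lower in all 3 HFS-fed than in both chow-fed *Xbp1* LKO libraries, as 14.4% of all genes tested were, with a log2 fold change of -0.52 (SE 0.16, 95% interval -0.87 to -0.17, adjusted p = 0.240).

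Averaged over genotypes, 0 of 9 passed for diet against 1.1% of all genes, 1 (*Pnpla2*) had an unadjusted p under 0.05 against 14.8% of all genes, and DESeq2 called 0. The 95% intervals of this averaged diet effect were -0.14 to 0.29 for *Cideb*, -0.14 to 0.36 for *Fitm2*, -0.20 to 0.15 for *Plin3*, -0.50 to 0.18 for *Plin5*, -0.18 to 0.85 for *Cidec*, -0.35 to 0.74 for *G0s2* and -0.77 to 0.91 for *Plin4*. A rise or fall of 2-fold (log2 of 1) lies outside each of these averaged intervals. A 2-fold rise lies inside some intervals of a single genotype. Those of *Plin4* were -0.97 to 1.36 in *Xbp1* fl/fl and -1.26 to 1.16 in *Xbp1* LKO. In *Xbp1* LKO those of *Cidec* and *G0s2* were -0.25 to 1.28 and -0.49 to 1.14. The interaction of genotype and diet called 0 of 9 genes in edgeR and in DESeq2, with 1 (*Pnpla2*) at an unadjusted p under 0.05. For *Plin2* the interaction was 0.51 (SE 0.31, adjusted p = 0.857).

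**Figure D4:**
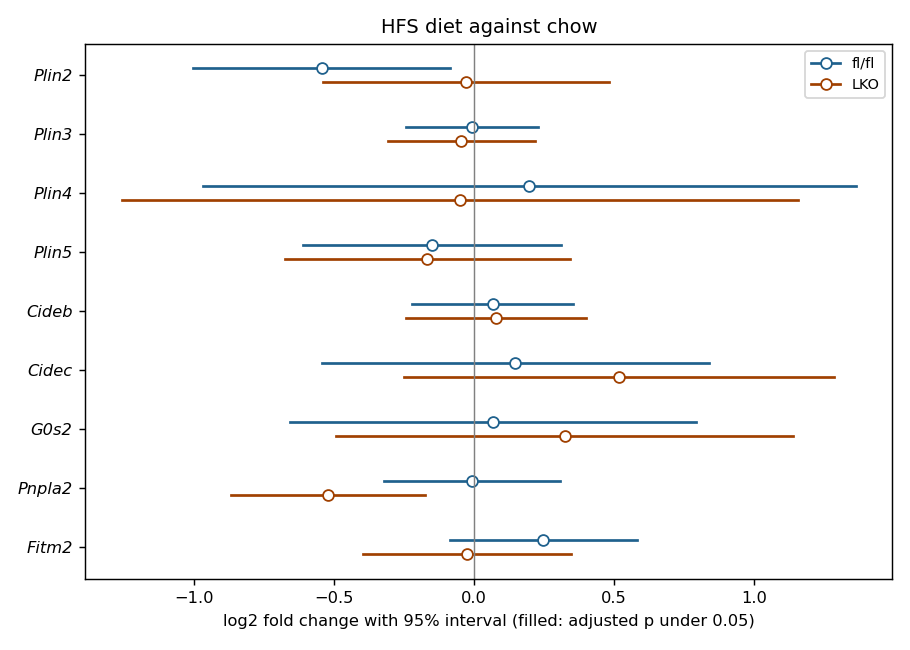
Log2 fold change of HFS-fed against chow-fed hepatocytes with its 95% interval, for 9 genes in *Xbp1* fl/fl and in *Xbp1* LKO hepatocytes; open points did not pass an adjusted p of 0.05. All 18 points are open, and the intervals of *Plin2* in *Xbp1* fl/fl and of *Pnpla2* in *Xbp1* LKO are the ones that leave out 0.

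Libraries of a group differed among themselves in these genes. Chow-fed *Xbp1* fl/fl replicate 3 was the highest of its group for *Plin2*, *Plin4*, *Plin5*, *Cidec* and *G0s2* and the lowest for *Plin3*, *Cideb* and *Pnpla2*. Over all 11 libraries, *Plin4* and *Fitm2* had a Pearson r of 0.77 on log2 CPM, *Plin4* and *Cidec* 0.65, *Plin2* and *G0s2* 0.51, and *Plin3* and *Plin4* -0.73. These describe 11 libraries that share genotype and diet groups and carry no test. Since *Fitm2* had the smallest p of the genes in the comparisons of genotype on 1 diet, the genes most like it were sought among 8879 genes with a mean of at least 5 CPM. They were *Rab22a* (r = 0.94), *Dgkd* (r = 0.93) and *Mtrr* (r = 0.92).

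Of 15 other genes of droplet assembly and growth, 13 were tested, and averaged over diets 1 was higher and 2 were lower in *Xbp1* LKO hepatocytes, against 5.25% of all genes called higher and 6.64% called lower. *Dgat2*, which makes the triglyceride that fills the droplet, fell by 1.76 on the log2 scale (SE 0.18, adjusted p = 1.9e-04), and fell by 1.64 on chow and 1.89 on the HFS diet. The chow call was lost without chow-fed *Xbp1* LKO replicate 2 (adjusted p = 0.0659). *Acsl3*, the acyl-CoA synthetase of nascent droplets, fell by 1.01 on chow (adjusted p = 0.0081) and by 0.58 averaged over diets, a call lost with library totals (adjusted p = 0.0622). Its genotype estimate on the HFS diet was -0.16 (adjusted p = 0.658). It also fell by 0.87 with HFS feeding in *Xbp1* fl/fl, a call lost when any 1 *Xbp1* fl/fl library was left out. *Fitm1*, the muscle-type paralog of *Fitm2*, was higher by 0.82 (adjusted p = 0.0497) at the edge of the threshold, and left the threshold without any of 8 libraries. The median of the 13 was -0.08 against 0.01 for all genes. This list and those that follow were chosen with earlier results of these data known, so their counts describe the listed genes and no more.

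The lipolysis and lipophagy list (12 genes, all tested) gave 0 calls in every comparison in edgeR. Of all genes tested, 11.9% passed for genotype averaged over diets, 4.75% for genotype on chow, 4.08% for genotype on HFS and 1.1% or less elsewhere. For 12 genes a count of 0 lies near these shares. At an unadjusted p under 0.05 there were 0 for genotype on chow and 2 on the HFS diet, against 19.3% and 17.5% of all genes. DESeq2 called 0 for genotype averaged over diets, against 1989 of all 13303 genes. *Abhd5*, the activator of PNPLA2, had log2 fold changes of 0.02 on chow and 0.17 on the HFS diet (adjusted p = 0.936 and 0.430). *Mgll*, which cleaves the last fatty acid from glycerol, had the smallest p of the list, for diet averaged over genotypes (log2 fold change 0.50, adjusted p = 0.072 in edgeR and 0.0024 in DESeq2).

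Among 19 droplet-bound enzymes and trafficking genes, 1 was higher and 4 were lower averaged over diets, beside 5.25% and 6.64% of all genes tested. *Hsd17b13*, a hepatocyte droplet protein, fell by 2.03 (SE 0.33, adjusted p = 0.0019) and by 2.87 on chow (adjusted p = 0.011), the latter lost without chow-fed *Xbp1* LKO replicate 2 (adjusted p = 0.0809). *Snx14*, a tether of ER and droplets, fell by 0.39 (adjusted p = 0.0020), *Ubxn4* by 0.48 (adjusted p = 0.014) and the sterol enzyme *Lss* by 0.76 (adjusted p = 0.010). On the HFS diet alone *Hsd17b13* and *Lss* had estimates of -1.20 and -0.36, not called (adjusted p = 0.147 and 0.434). The averaged calls of *Snx14* and *Ubxn4* were lost with library totals, that of *Ubxn4* also without chow-fed *Xbp1* LKO replicate 1, and that of *Lss* without chow-fed *Xbp1* LKO replicate 2. *Spg20*, named after its values were seen, was higher by 0.41 (adjusted p = 0.029). With HFS feeding averaged over genotypes, the sterol enzymes *Nsdhl* and *Lss* fell by 2.48 and 1.16, and *Hsd17b11* rose by 0.87 (adjusted p = 0.033). The last call was lost under 6 of the 11 fits that left out a library.

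Of 12 transcription factors that act on droplet genes, 1 was higher and 1 lower averaged over diets, while 11.9% of all genes passed in either direction. *Pparg*, the fat cell factor that drives *Plin4* and *Cidec* in fatty liver, rose by 1.01 (SE 0.19, adjusted p = 0.0050), by 1.35 on the HFS diet (adjusted p = 0.014) and had an estimate of 0.68 on chow (adjusted p = 0.198). Its HFS call was lost without HFS-fed *Xbp1* fl/fl replicate 1 or 2 or HFS-fed *Xbp1* LKO replicate 2, and its averaged call remained with any 1 library left out. *Srebf1*, the factor for fatty acid synthesis, fell by 1.15 with genotype (adjusted p = 0.036) and rose by 1.52 with diet (adjusted p = 0.0492), and these calls were lost in 7 and 8 of the 11 fits that left out a library. *Ppara* itself had estimates of -0.21 on chow and -0.00 on the HFS diet.

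Of 20 PPAR alpha target genes, 5 were higher and 0 lower averaged over diets, against 5.25% of all genes called higher. *Acot2*, a mitochondrial acyl-CoA thioesterase, rose by 1.76 (SE 0.26, adjusted p = 0.0014), a call that remained with any 1 library left out. *Pdk4*, *Fgf21* and *Cyp4a31* rose by 2.45, 2.05 and 0.88 averaged over diets, and *Pdk4* and *Fgf21* were not called on either diet alone. Each call was lost without chow-fed *Xbp1* LKO replicate 2, where the log2 fold changes were 1.29, 1.33 and 0.79 (adjusted p = 0.110, 0.205 and 0.122), and those of *Fgf21* and *Cyp4a31* also in 5 and 6 other fits that left out a library. *Cyp4a14*, named after its values were seen, was higher by 1.05 (adjusted p = 0.044). The median of the 20 genes was 0.19, and 7 of the 20 estimates were negative. On single diets, *Acot2* was called on chow (2.10, adjusted p = 0.011) and on the HFS diet (1.41, adjusted p = 0.046). Its chow estimate without chow-fed *Xbp1* LKO replicate 2 was 1.00, and its HFS call was lost without any 1 HFS-fed library. *Cyp4a31* was 1.68 on the HFS diet (adjusted p = 0.014) and 0.08 on chow (adjusted p = 0.927). That HFS call was lost without HFS-fed *Xbp1* fl/fl replicate 2 or 3 or *Xbp1* LKO replicate 3. *Plin2*, itself a known PPAR alpha target in liver, did not pass in any comparison.

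**Figure D5:**
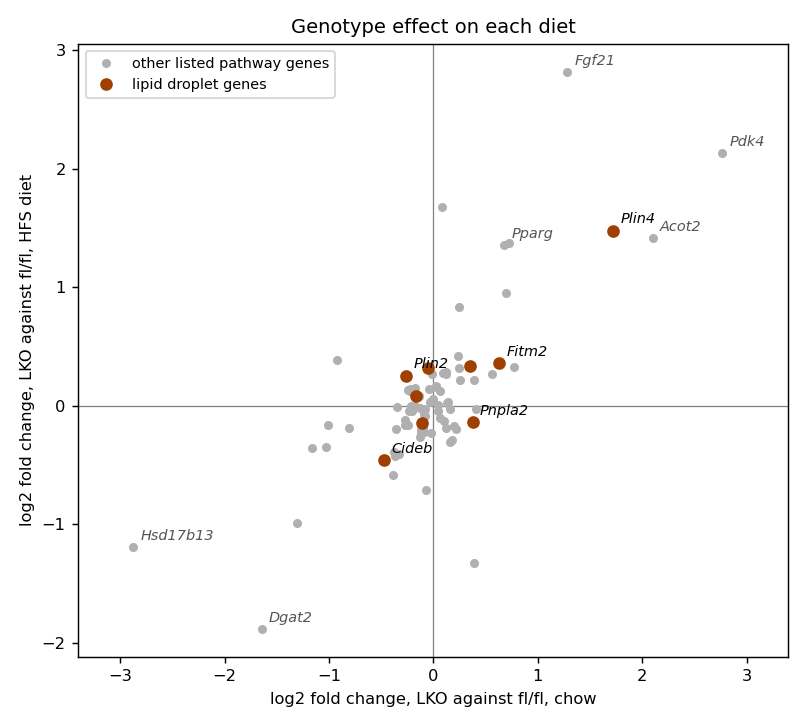
Log2 fold change of *Xbp1* LKO against *Xbp1* fl/fl on chow (x) and on the HFS diet (y), from separate libraries; large points are the 9 lipid droplet genes and grey points the listed genes of droplet assembly, lipolysis, droplet-bound enzymes, transcription factors and PPAR alpha targets. *Plin4* sits beside *Acot2* in the upper right, and *Dgat2* and *Hsd17b13* lie far to the lower left of *Cideb*.

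Summed levels of markers of other cells varied between libraries and groups, and few single markers were called. Of 7 adipocyte markers, *Lep* and *Ucp1* were at 0 in all libraries and *Adipoq*, *Retn* and *Plin1* had 3 counts or fewer, while *Cfd* reached 17.6 CPM in HFS-fed *Xbp1* fl/fl replicate 3. The summed adipocyte level was 0.405 to 1.54 CPM in chow-fed *Xbp1* fl/fl, 0.853 to 1.14 in chow-fed *Xbp1* LKO, 1.91 to 19.3 in HFS-fed *Xbp1* fl/fl and 1.27 to 8.03 in HFS-fed *Xbp1* LKO libraries. Within each HFS-fed genotype, the library with the largest adipocyte sum also had the most *Plin4*. For *Xbp1* LKO this was replicate 2, with *Plin4* at 35.8 CPM and *Cfd* at 6.81 CPM of a sum of 8.03 CPM. For *Xbp1* fl/fl it was replicate 3, with *Plin4* at 15.1 CPM and a sum of 19.3 CPM. Chow-fed *Xbp1* LKO replicate 1 held 29.8 CPM of *Plin4* beside an adipocyte sum of 0.853, and replicate 2 held 24.9 beside 1.14. Macrophage markers (8 genes) summed to 14.2 to 62.3, 14.97 to 23.5, 28.8 to 40.1 and 39.3 to 72.6 CPM in the same order of groups, and endothelial markers (7 genes) to 35.6 to 86.0, 21.9 to 28.5, 71.2 to 116 and 57.7 to 86.3 CPM. Stellate markers (8 genes) summed to 11.5 to 34.2, 7.25 to 7.91, 20.3 to 34.3 and 23.96 to 50.9 CPM, and cholangiocyte markers (5 genes) to 8.03 to 12.2, 4.81 to 5.55, 3.38 to 12.7 and 10.6 to 16.1 CPM. For diet, 0 markers of these other cells were called in *Xbp1* fl/fl or *Xbp1* LKO, against 0.428% and 0.0601% of all genes. Averaged over diets, 2 of 7 endothelial and 1 of 2 tested cholangiocyte markers were called lower in *Xbp1* LKO, against 6.64% of all genes. On chow 1 cholangiocyte marker was called lower, against 4.75% of all genes called in either direction. No other marker of these lists was called for genotype. Of the 10 hepatocyte markers, 5 were called lower and 0 higher in *Xbp1* LKO averaged over diets, against 6.64% and 5.25% of all genes. *Hnf4a*, also on that list, had log2 fold changes of -0.08 on chow and -0.09 on the HFS diet, not called. The part of the other cell types, and of the lower hepatocyte marker level, in the droplet gene differences was not tested. Fewer hepatocytes cannot be told apart from less RNA of the marker genes per cell.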

How the data were processed

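RNA from isolated hepatocytes was sequenced by the study as 50 bp single-end reads. The authors deposited whole-number counts per Ensembl gene, without normalization. The study's methods name kallisto and tximport, while the submitters' processing notes name cutadapt 1.13, STAR, HTSeq 0.6.1p1, DESeq2 and mm10, so which of these made the counts is not settled, nor whether strand was used. Symbols and positions came from GENCODE M21 on GRCm38, in which 54079 of 54232 identifiers were found.

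Counts were scaled by TMM in edgeR 4.0.16 (R 4.3.3), filtered with filterByExpr (minimum count 10) and fitted as 1 factor of 4 groups by quasi-likelihood over 11 libraries. Genes with an adjusted p (Benjamini-Hochberg) under 0.05 were called. SE is the log2 fold change over the square root of F. A prior count of 2 went into the log2 CPM used for correlations. The code was tested on simulated data. Alternatives were DESeq2 1.42.0, scaling by RLE or by library totals, no filter or a mean of at least 1 CPM, fits of only the groups compared, a replicate block and the leaving out of each library in turn. Total counts are given above, and intervals cover the spread between libraries. Of each pathway list, up to 4 called genes per comparison were named, otherwise the gene with the smallest p. The genes and lists were chosen with earlier results of these data known.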

Additional observations from a re-analysis of the deposited data

How the results depend on the processing

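For genotype on chow, the number of droplet genes called moved from 0 to 3 with library totals (*Plin4*, *Pnpla2* and *Fitm2*), to 2 with no filter (*Plin4* and *Fitm2*) and to 1 with DESeq2 (*Fitm2*), and was 0 to 1 with 1 library left out. The genes called among all those tested moved with it, from 632 of 13303 (36.4% of them higher) to 3000 with library totals (89.5% higher), 1507 of 26016 with no filter and 1130 with DESeq2. With only the groups compared they were 233 of 12367. On the HFS diet it moved from 0 to 2 with library totals (*Plin4* and *Fitm2*), to 2 with no filter (*Plin4* and *Cideb*), to 1 with DESeq2 (*Cideb*) and to 1 with only the groups compared (*Cideb*), and was 0 to 1 with 1 library left out. All called genes there went from 543 (47.1% higher) to 1483 with library totals (86.9% higher), 1438 of 26016 with no filter, 1007 with DESeq2 and 809 of 12480 with only the groups compared. Averaged over diets it was 3, 4 with library totals (*Plin4*, *Plin5*, *Pnpla2* and *Fitm2*, with *Cideb* lost), 4 with no filter (*Plin4*, *Plin5*, *Cideb* and *Fitm2*), and 1 to 3 with 1 library left out, the 1 being *Fitm2*. All called genes averaged over diets were 1582 (44.2% higher), 5802 with library totals (91.4% higher) and 2325 of 26016 with no filter. RLE size factors and a mean of at least 1 CPM kept each of these counts, and diet and interaction counts were 0 throughout. Replicate numbers follow the sample titles, and the deposited file of chow-fed *Xbp1* LKO replicate 2 bears the number 3, under which the block was not run. Same-numbered libraries are different animals, and 4 of 15 same-numbered pairs deviated together with r over 0.1. The mean r was -0.009 for same-numbered pairs and 0.004 for other pairs, so no pairing by number was seen. Deviations were taken from means of 2 or 3 libraries and must cancel within a group, so this check cannot decide whether the number marks a shared batch. With the replicate block the averaged count was 3, and the block turned the sign of *Cidec* on chow (0.0791), *G0s2* on chow (0.0651) and *Pnpla2* for diet in *Xbp1* fl/fl (0.00852), none called. Library totals turned the sign on chow of *Plin2* (0.0781), *Plin3* (0.22), *Cidec* (0.28) and *G0s2* (0.17), on the HFS diet of *Plin3* (0.12) and *Pnpla2* (0.12), and for diet in *Xbp1* fl/fl of *Plin3* (0.0107) and *Pnpla2* (0.00867). Relative to the median of all genes under that scaling (0.33 on chow and 0.27 on the HFS diet), these values kept their sign, at -0.25, -0.11, -0.05 and -0.16 on chow, -0.15 and -0.15 on the HFS diet, and -0.000703 and -0.00276 for diet. Subtracting that median largely undoes the scaling, so the kept sign is no separate check. With 1 library left out, uncalled estimates changed sign on chow for *Plin2* (-0.53 to 0.00348), *Cidec* (-0.22 to 0.22) and *G0s2* (-0.57 to 0.14), and on the HFS diet for *G0s2* (-0.22 to 0.34). They did so for diet in *Xbp1* fl/fl for *Plin3* (-0.0995 to 0.0572), *Plin4* (-0.31 to 1.07), *Cideb* (-0.00687 to 0.13), *Cidec* (-0.20 to 0.42), *G0s2* (-0.19 to 0.37) and *Pnpla2* (-0.13 to 0.0952), and in *Xbp1* LKO for *Plin2* (-0.26 to 0.25), *Plin4* (-0.33 to 0.27), *Plin5* (-0.33 to 0.0312), *Cideb* (-0.13 to 0.32) and *Fitm2* (-0.0856 to 0.0454). The cause of these changes was not tested, beyond the fewer libraries themselves. Leaving out 1 of the 2 chow-fed *Xbp1* LKO libraries takes the spread of the other from the other groups.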
